A study of Homo sapiens with 16 samples.

Results

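Small nucleolar RNA (snoRNA) host genes carry snoRNAs inside their introns. The 8 described here, GAS5, SNHG1, SNHG3, SNHG5, SNHG6, SNHG7, SNHG8 and SNHG12, were chosen by symbol from 23368 entries of an RNA-sequencing table, and all 8 were among the 13570 genes that passed a filter on low values. The cells were MCF10A, an established line of human mammary epithelium that does not form tumours. A Mock stock carrying an empty vector was compared with a PHF8 stock made to overexpress that JmjC-family histone demethylase. Both were either left untreated or given TGF-β1 (5 ng/ml) for 24, 48 or 72 h, with 2 libraries in each of the 8 groups. Replicate 1 of each group came from a first sequencing round and replicate 2 from a second, so the replicate number is the round. The culture medium of all groups contained EGF, insulin, cholera toxin, horse serum and hydrocortisone, a glucocorticoid. The labels name 1 stock of each kind, so the PHF8 level cannot be told apart from any other difference between the stocks, and they do not say whether replicates were separate cultures. P-values therefore measure the spread between these libraries, which may be technical.

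A host gene is transcribed and spliced like a messenger RNA, and its introns are trimmed to box C/D snoRNAs, which guide ribose methylation of ribosomal RNA, or to box H/ACA snoRNAs, which guide pseudouridylation. The spliced exons of most hosts in this group have no long reading frame. Many host RNAs start with an oligopyrimidine tract, as messenger RNAs of ribosomal proteins do (TOP RNAs), are loaded on ribosomes and are then degraded by nonsense-mediated decay (NMD). GAS5 was first isolated as a transcript that accumulates in growth-arrested cells, and its RNA can bind the DNA-binding domain of the glucocorticoid receptor.

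The annotated 5′ ends of the hosts are shown because the pyrimidine tract that names TOP RNAs lies there. In GENCODE 29 on GRCh38, 7 of the 8 genes have at least 1 annotated transcript that opens with C and at least 4 more pyrimidines, the exception being SNHG7. Such a start was found in 19 of 111 member transcripts (17.1%), against 2.41% of all 206694 transcripts, and 6.58% of all genes have at least 1. The 8 members have 111 annotated transcripts, and all 58721 genes have 206694. The share of genes was not matched for transcript number. For 7 of the genes, the first 36 bases of the transcript with the longest opening run follow, with the unbroken run from the first base in capitals.
GAS5: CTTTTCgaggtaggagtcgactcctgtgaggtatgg
SNHG1: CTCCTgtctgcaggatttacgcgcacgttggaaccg
SNHG3: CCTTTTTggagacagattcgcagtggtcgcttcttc
SNHG5: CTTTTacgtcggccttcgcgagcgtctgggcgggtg
SNHG7: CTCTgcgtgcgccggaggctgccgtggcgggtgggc
SNHG8: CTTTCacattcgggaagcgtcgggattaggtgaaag
SNHG12: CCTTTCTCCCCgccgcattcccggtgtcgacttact
The run was 4 bases long in SNHG7 and 11 in SNHG12. An annotated end is not a start site measured in these cells.

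The snoRNAs inside the hosts have rows of their own in the table. The 5 box C/D snoRNAs printed here are among the rows that fell after TGF-β1 at 1 or more times. They were matched to a sequence in GENCODE 29. SNORD87, in SNHG6, also fell and is not printed. Capitals mark the letters TGATGA of the C box and the last CTGA, the D box, by which the snoRNA proteins recognise the fold. SNORD26 holds the CTGA without the letters TGATGA. The letters were searched on the RNA strand, and both occur in 33.5% of 955 annotated snoRNAs, H/ACA snoRNAs included.
SNORD25: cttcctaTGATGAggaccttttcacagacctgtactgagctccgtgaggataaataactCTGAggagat
SNORD26: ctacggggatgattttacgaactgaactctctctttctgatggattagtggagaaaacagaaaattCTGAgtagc
SNORD27: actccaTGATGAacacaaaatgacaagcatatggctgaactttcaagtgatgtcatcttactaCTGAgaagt
SNORD30: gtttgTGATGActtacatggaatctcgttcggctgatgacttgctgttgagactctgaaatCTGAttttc
SNORD50B: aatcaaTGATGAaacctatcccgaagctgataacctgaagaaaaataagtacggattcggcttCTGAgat
SNORD25 (chr11:62855564-62855632), SNORD26 (chr11:62855292-62855366), SNORD27 (chr11:62855012-62855083) and SNORD30 (chr11:62853663-62853732) lie within SNHG1, and SNORD50B (chr6:85677589-85677658) lies within SNHG5, all on the minus strand of GRCh38.

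The E-box CACGTG, the motif that names the E-box-binding MYC family, was searched in RefSeq promoter windows of 300 bases (GRCh38.p14). It was found in 1 of the 7 members with a window, SNHG7, and in 7.26% of all 35116 windows; the motif is its own reverse complement. No match says only that these letters are not in this window.
SNHG7 promoter: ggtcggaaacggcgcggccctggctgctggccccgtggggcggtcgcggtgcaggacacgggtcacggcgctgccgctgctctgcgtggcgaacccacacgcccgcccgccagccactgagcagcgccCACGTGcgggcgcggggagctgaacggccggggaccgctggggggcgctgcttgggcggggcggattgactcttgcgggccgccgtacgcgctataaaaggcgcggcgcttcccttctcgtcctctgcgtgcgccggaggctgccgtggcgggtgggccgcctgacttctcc
The window is chr9:136728135-136728434 on the minus strand, with the motif in capitals.

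On GRCh38, GAS5 lies at chr1:173863900-173868882 on the minus strand, SNHG3 at chr1:28505980-28510892 on the plus strand and SNHG12 at chr1:28578538-28583132 on the minus strand. SNHG1 lies at chr11:62851988-62855914 and SNHG5 at chr6:85660950-85678748, both on the minus strand. SNHG7 is at chr9:136721366-136728184 on the minus strand and SNHG8 at chr4:118278709-118279823 on the plus strand. SNHG6 lies on the minus strand of chromosome 8. The submitters counted on hg19 with an annotation that is not given in the sources used here, and whether counting used the strand of the stranded libraries is not given either. Values of SNHG6 and SNHG7 are therefore uncertain, since 29.3% of the exon bases of SNHG6 lie opposite MCMDC2 and 25.2% of those of SNHG7 opposite FAM69B. SNHG3 shares 5.92% of its exon bases with RCC1 on the same strand, and SNHG8 shares 14.2% with the snoRNA SNORA24.

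Values are log2 expression as deposited, on the scale of normalised read counts, and sums on the linear scale were 18.8 to 21.2 M per library; read counts were not analysed, so the depth behind each value is unknown. PHF8 itself stood at 9.26 to 9.72 in the 8 Mock libraries and at 13.64 to 14.73 in the 8 PHF8 libraries. The basal epithelial keratin KRT5 ranged from 14.35 to 15.64 and the basal transcription factor TP63 from 9.38 to 11.57. Of the luminal markers, PGR was at 0 and ESR1, GATA3 and FOXA1 reached 5.92, 6.97 and 8.07. The blood and endothelial markers PTPRC, CD34 and CDH5 were below 0 and PECAM1 did not pass 4.55.

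The first question was what TGF-β1 did to the host RNAs. All 8 fitted differences were below 0 at each of the 3 times, with a median of -0.57 at 24 h, -0.64 at 48 h and -0.51 at 72 h on the log2 scale, where the median of all genes tested was -0.0079, 0.0034 and 0.0026. Over both stocks, with 4 treated against 4 untreated libraries at each time, 5 of 8 fell at 24 h, 6 at 48 h and 4 at 72 h, and 0 rose (limma, adjusted p under 0.05). Of all genes tested, 16.3%, 15.0% and 13.1% fell at these times. With the sequencing round as a block the counts were 7, 8 and 8, against 25.0%, 23.9% and 22.0% of all genes. The 3 comparisons share the untreated libraries.

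GAS5 in Mock cells stood at 12.05 untreated and 11.43, 11.61 and 11.70 at 24, 48 and 72 h in round 1, and at 12.36, then 11.85, 11.52 and 11.50 in round 2. The PHF8 stock held GAS5 at 12.50, then 12.33, 11.64 and 11.81 in round 1 and at 12.36, then 11.83, 11.58 and 11.57 in round 2. Untreated was the highest point in each of the 4 series, and 1 treated library, PHF8 at 24 h in round 1, lay within the untreated range. GAS5 fell by 0.46 ± 0.132 at 24 h (SE, n = 4 per arm; adjusted p = 0.0212), by 0.73 ± 0.132 at 48 h (adjusted p = 0.00176) and by 0.67 ± 0.132 at 72 h (adjusted p = 0.00333). At 48 h its level was 60.4% of the untreated one. Here and below, fits without 1 library were run without the round as a block. The call at 24 h was lost without Mock untreated round 2 (adjusted p = 0.0801), Mock 24 h round 1 (0.0757), PHF8 24 h round 2 (0.0743) or PHF8 untreated round 1 (0.061).

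SNHG1, host of 8 box C/D snoRNAs on chromosome 11, stood in Mock cells at 10.66 untreated and 10.09, 10.42 and 10.39 after treatment in round 1, and at 10.60, then 9.64, 9.57 and 9.85 in round 2. In PHF8 cells it was 10.48, then 9.73, 10.04 and 10.01 in round 1 and 10.43, then 9.43, 9.71 and 9.89 in round 2. All 12 treated libraries lay below all 4 untreated ones, and 24 h was the lowest time in 3 of the 4 series. SNHG1 fell by 0.82 ± 0.188 at 24 h (adjusted p = 0.00689) and by 0.61 ± 0.188 at 48 h (adjusted p = 0.0297). At 72 h the difference was -0.51 ± 0.188 (adjusted p = 0.0669; 0.00444 with the round as a block). Without 1 library the call at 48 h was lost for 6 of the 16 libraries: Mock 48 h round 2 (adjusted p = 0.11), PHF8 48 h round 2 (0.0993) and each of the 4 untreated ones (0.0673 to 0.0728).

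SNHG3, host of the H/ACA snoRNAs SNORA73A and SNORA73B, had Mock values of 9.69 untreated, then 9.11, 9.56 and 9.69 in round 1 and of 10.17, then 9.34, 9.03 and 9.22 in round 2. Its PHF8 values were 9.75, then 9.17, 9.38 and 9.38 in round 1 and 10.16, then 9.14, 9.08 and 9.26 in round 2. The round 1 Mock series returned to its untreated level by 72 h, and the other 3 series did not. SNHG3 fell by 0.76 ± 0.167 at 24 h (adjusted p = 0.00561), by 0.68 ± 0.167 at 48 h (adjusted p = 0.00971) and by 0.56 ± 0.167 at 72 h (adjusted p = 0.029). Within rounds the 72 h difference was -0.18 in round 1 and -0.93 in round 2. The call at 72 h was lost without either round 2 untreated library (adjusted p = 0.115 for Mock, 0.113 for PHF8), Mock 72 h round 2 (0.115), PHF8 72 h round 2 (0.082) or PHF8 72 h round 1 (0.0556).

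SNHG8, on chromosome 4, showed the smallest adjusted p of the 8. Mock values were 10.74, then 10.41, 10.34 and 10.53 in round 1 and 10.96, then 10.31, 9.98 and 10.18 in round 2. PHF8 values were 10.83, then 10.46, 10.05 and 10.36 in round 1 and 10.87, then 10.16, 9.96 and 10.25 in round 2. Treated and untreated libraries did not overlap, and 48 h was the lowest time in all 4 series. SNHG8 fell by 0.51 ± 0.111 at 24 h (adjusted p = 0.00515), by 0.77 ± 0.111 at 48 h (adjusted p = 0.000464) and by 0.52 ± 0.111 at 72 h (adjusted p = 0.00544), and no call was lost when any 1 of the 16 libraries was left out.

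SNHG12, which carries H/ACA snoRNAs and SNORD99, stood at 8.56, then 7.85, 7.98 and 7.97 in Mock round 1 and at 8.17, then 7.35, 7.39 and 7.77 in Mock round 2. PHF8 libraries gave 8.01, then 7.75, 7.84 and 7.89 in round 1 and 7.99, then 7.28, 7.57 and 7.80 in round 2. Here too every treated library lay below every untreated one, by as little as 7.98 against 7.99, and 24 h was the lowest time in each series. SNHG12 fell by 0.63 ± 0.175 at 24 h (adjusted p = 0.0183). The later differences were -0.49 ± 0.175 at 48 h (adjusted p = 0.0533; 0.00321 with the block) and -0.33 ± 0.175 at 72 h (adjusted p = 0.195; 0.0294 with the block). The 24 h call was lost without Mock 24 h round 2 (adjusted p = 0.0745), Mock untreated round 1 (0.0684) or PHF8 24 h round 2 (0.0655).

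SNHG6, host of SNORD87, was at 10.09, then 9.65, 9.67 and 9.62 in Mock round 1 and at 9.88, then 9.90, 9.57 and 9.47 in Mock round 2. PHF8 cells had 10.21, then 10.02, 9.64 and 9.65 in round 1 and 10.16, then 9.87, 9.65 and 9.71 in round 2. The 48 and 72 h libraries were all below the untreated ones, and at 24 h 2 libraries were not. SNHG6 fell by 0.45 ± 0.084 at 48 h (adjusted p = 0.00202) and by 0.47 ± 0.084 at 72 h (adjusted p = 0.00181). At 24 h it differed by -0.23 ± 0.084 (adjusted p = 0.0574; 0.0259 with the block).

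SNHG7, the host of SNORA17A and SNORA17B on chromosome 9, was 9.63, then 8.92, 9.34 and 9.40 in Mock round 1 and 9.52, then 8.90, 8.55 and 8.68 in Mock round 2. PHF8 libraries read 9.92, then 9.61, 9.10 and 9.23 in round 1 and 9.52, then 8.66, 8.63 and 8.69 in round 2. Within each round all treated libraries were below the untreated ones. SNHG7 fell by 0.75 ± 0.255 at 48 h (adjusted p = 0.0447), and the differences of -0.62 at 24 h and -0.65 at 72 h had adjusted p = 0.0807 and 0.0827 (0.00303 and 0.00282 with the block). The 48 h call was lost without any of 8 libraries: Mock 48 h round 2 (adjusted p = 0.17), PHF8 48 h round 2 (0.139), each of the 4 untreated ones (0.0611 to 0.124), and either Mock 24 h library (0.058 in both cases).

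SNHG5, host of SNORD50A and SNORD50B, was set apart by the sequencing round. Mock values were 9.88, then 10.02, 9.77 and 9.80 in round 1 but 11.18, then 11.04, 10.89 and 10.72 in round 2. PHF8 values were 10.31, then 10.16, 9.69 and 9.93 in round 1 and 11.16, then 11.05, 10.80 and 10.81 in round 2. All 8 libraries of round 2 were above all 8 of round 1, and within round 2 treated libraries were below untreated ones. Its TGF-β1 differences were -0.07 ± 0.436, -0.35 ± 0.436 and -0.32 ± 0.436 at 24, 48 and 72 h (adjusted p = 0.925, 0.591 and 0.644). With the block the SE was 0.0757, and SNHG5 passed the test at 48 h (adjusted p = 0.0029) and 72 h (adjusted p = 0.00531) but not at 24 h (adjusted p = 0.492).

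**Figure D1:**
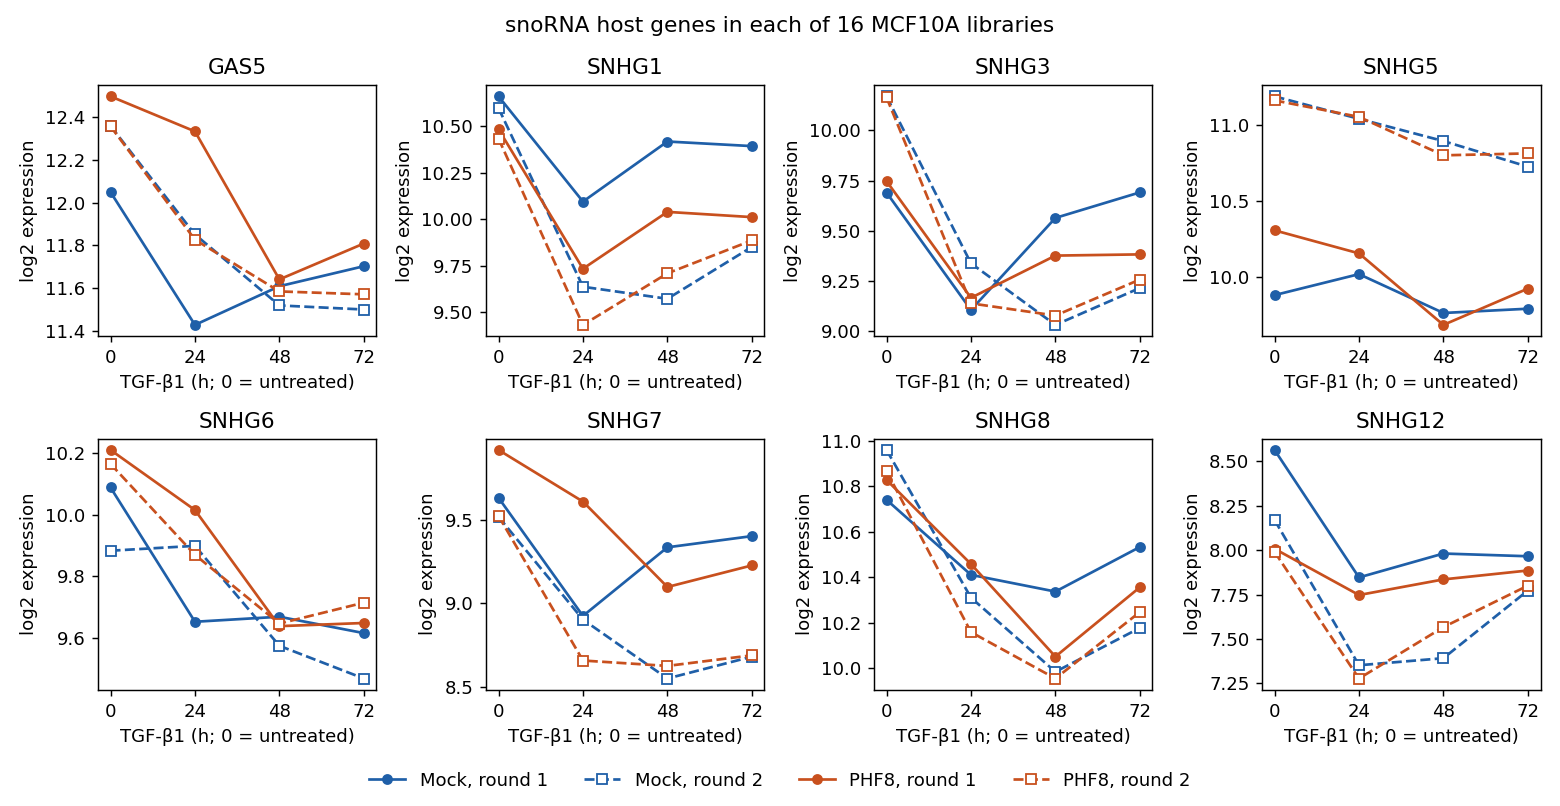
Log2 expression of each host gene (vertical axis, own scale per panel) against hours of TGF-β1 (0 = untreated) in the 16 libraries, with 1 line per stock and round; filled circles are round 1, open squares round 2. SNHG1, SNHG8 and SNHG12 have every treated library below every untreated one, and SNHG5 splits by round.

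Counted over both rounds, all 12 treated libraries lay below all 4 untreated ones in 3 of 8 members, SNHG1, SNHG8 and SNHG12, and in 9.14% of all genes tested. Within round 1 this held for 5 members and 16.4% of genes, and within round 2 for 7 members and 27.6% of genes. Of the 32 treated-minus-untreated differences within 1 stock and round, 30 were below 0 at 24 h, 32 at 48 h and 31 at 72 h. The exceptions at 24 h were SNHG5 in Mock round 1 (0.14) and SNHG6 in Mock round 2, and the 1 at 72 h was SNHG3 in Mock round 1, at 0.0009. The lowest treated time was 24 h in 11 of the 32 series, 48 h in 16 and 72 h in 5.

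The members did not share 1 time course by eye. SNHG1, SNHG3 and SNHG12 had their largest fitted difference at 24 h, while GAS5, SNHG5, SNHG7 and SNHG8 had it at 48 h and SNHG6 at 72 h. Comparisons between treated times, added after these values were seen, called 0 of 8 members in each of the 3 pairs of times. Between 72 and 24 h the largest differences were 0.31 ± 0.188 for SNHG1 and 0.30 ± 0.175 for SNHG12, with adjusted p = 0.616 and 0.607, followed by -0.25 ± 0.436 for SNHG5 and -0.25 ± 0.084 for SNHG6, with adjusted p = 0.889 and 0.457. Of all genes 0.0295% passed at 72 against 24 h (0.892% with the block, again with 0 members), and 0 passed in the other pairs. At an unadjusted p under 0.05 there were 2 members and 824 of 13570 genes at 48 against 24 h, 1 member and 1293 genes at 72 against 24 h, and 1 member and 96 genes at 72 against 48 h. With the block there were 3, 4 and 1 members and 2063, 2953 and 310 genes.

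**Figure D2:**
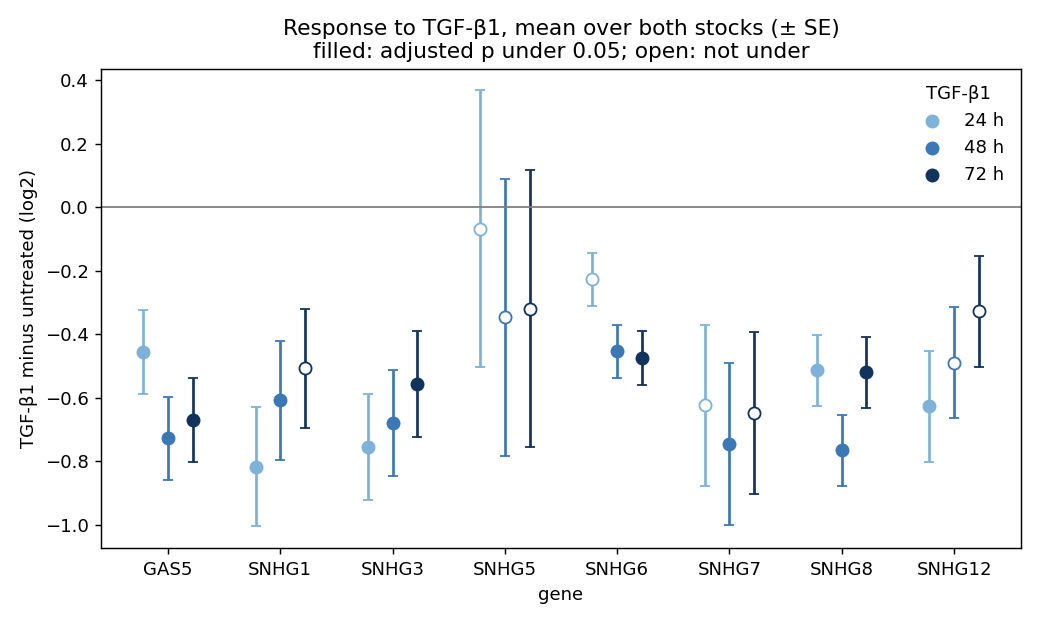
Fitted TGF-β1 minus untreated difference in log2 expression (vertical axis) for each host gene at 24, 48 and 72 h over both stocks, with SE bars; filled points have adjusted p under 0.05 in limma. All 24 points are below 0, from -0.07 for SNHG5 at 24 h to -0.82 for SNHG1 at 24 h.

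Within a stock each time point rests on 2 libraries against 2. In Mock cells 0 members fell at 24 h, 2 at 48 h and 1 at 72 h, beside 7.40%, 7.59% and 6.07% of all genes; the 2 were GAS5 (-0.64 ± 0.186, adjusted p = 0.0362) and SNHG8 (-0.69 ± 0.158, adjusted p = 0.0126), and the 1 was SNHG6 (-0.44 ± 0.119, adjusted p = 0.0292). In PHF8 cells 2 fell at 24 h (SNHG3 and SNHG8), 3 at 48 h (GAS5, SNHG6 and SNHG8) and 2 at 72 h (GAS5 and SNHG6), beside 4.71%, 5.68% and 4.16% of genes. With the round as a block the Mock counts were 6, 6 and 5 (17.5%, 16.9% and 15.1% of genes) and the PHF8 counts 5, 7 and 6 (14.4%, 13.8% and 11.7%). Among the differences called without the block the largest was that of SNHG8 in PHF8 cells at 48 h, -0.84 ± 0.158 (adjusted p = 0.00604). With the block SNHG1 in PHF8 cells at 24 h (-0.87 ± 0.165, adjusted p = 0.00306) and SNHG7 in PHF8 cells at 48 h (-0.86 ± 0.195, adjusted p = 0.00748) were larger.

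The calls made without the block depended on single libraries. In both stocks some fits without 1 library also called fewer of all genes tested, so such losses were not particular to the members. Fits with the block were not run with a library left out. In Mock cells the call of GAS5 was lost without round 2 untreated (adjusted p = 0.234) or either 48 h library (0.0756 and 0.189), that of SNHG8 without round 2 untreated (0.113) or round 2 at 48 h (0.131), and that of SNHG6 without any of its 4 libraries (0.0597 to 0.184). In PHF8 cells GAS5 and SNHG6 lost each call without any of the 4 libraries compared, with adjusted p from 0.0633 to 0.0899 for GAS5 and 0.06 to 0.0717 for SNHG6 at 48 h, and from 0.0745 to 0.176 and 0.0854 to 0.129 at 72 h. SNHG8 at 48 h lost its call without round 2 untreated (0.0502) or round 2 at 48 h (0.0508). The calls of SNHG3 and SNHG8 at 24 h were each lost in 12 of 16 fits, with adjusted p up to 0.302 and 0.238. SNHG3 kept its call without any Mock untreated or Mock 48 h library and lost it without each of the others, and SNHG8 kept its call without any Mock 48 or 72 h library and lost it without each of the others.

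Whether the response differed between the stocks was tested directly. The joint test over the 3 times called 0 members and 0 of 13570 genes, without and with the block. At an unadjusted p under 0.05 it held 0 members and 60 genes, or 158 with the block. The smallest unadjusted p of a member in limma was 0.471, for GAS5, without the block and 0.334, for SNHG12, with it. The difference between the responses, PHF8 minus Mock, ranged at 24 h from -0.12 ± 0.871 for SNHG5 to 0.28 ± 0.35 for SNHG12. SNHG12 had the largest such difference in size at all 3 times, with 0.38 ± 0.35 at 48 h and 0.34 ± 0.35 at 72 h. For GAS5 it was 0.22 ± 0.263 at 24 h, -0.17 ± 0.263 at 48 h and -0.13 ± 0.263 at 72 h.

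The second question was whether host RNAs differed between the PHF8 and Mock stocks. Over the 4 conditions 0 of 8 members were called, beside 1.69% of all genes (9.12% with the round as a block, again with 0 members). GAS5 was higher in PHF8 than in Mock cells in 6 of 8 matched pairs of libraries. Its PHF8 minus Mock differences over the 8 pairs ran from -0.02 to 0.91, with a mean of 0.20 ± 0.0931 (SE, n = 8 per stock, adjusted p = 0.321 in limma). SNHG6 was also higher in 6 of 8 pairs, with a mean of 0.13 ± 0.0594 (unadjusted p = 0.0475, adjusted p = 0.303 in limma), and was the 1 member with an unadjusted p under 0.05. SNHG1 was lower in 6 of 8 pairs, with a mean of -0.19 ± 0.133 (adjusted p = 0.532), and SNHG12 likewise in 6 of 8 (-0.12 ± 0.124, adjusted p = 0.696). The other 4 had means between -0.07 and 0.07. With the block GAS5, SNHG1 and SNHG6 had an unadjusted p under 0.05 and adjusted p = 0.163, 0.164 and 0.13. Of all 13570 genes 2192 had an unadjusted p under 0.05 without the block and 3876 with it.

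At single conditions 0 members were called in untreated cells or at 24, 48 or 72 h, where 0.00737%, 0.00737%, 0.00737% and 0.0147% of genes passed (0.0368%, 0.0442%, 0.0147% and 0.0958% with the block). At an unadjusted p under 0.05 there was 1 member at 24 h, GAS5, beside 530 of 13570 genes, and 0 members in the others. With the block GAS5 at 24 h and SNHG12 in untreated cells (-0.37, unadjusted p = 0.035, adjusted p = 0.419 in limma) were under 0.05, beside 1225 and 1505 genes. The rounds differed in this comparison. PHF8 minus Mock at 24 h was 0.91 in round 1 and -0.02 in round 2 for GAS5, and 0.68 and -0.25 for SNHG7. Averaged over the conditions, the GAS5 difference was 0.37 in round 1 and 0.03 in round 2, and that of SNHG1 was -0.32 and -0.05.

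**Figure D3:**
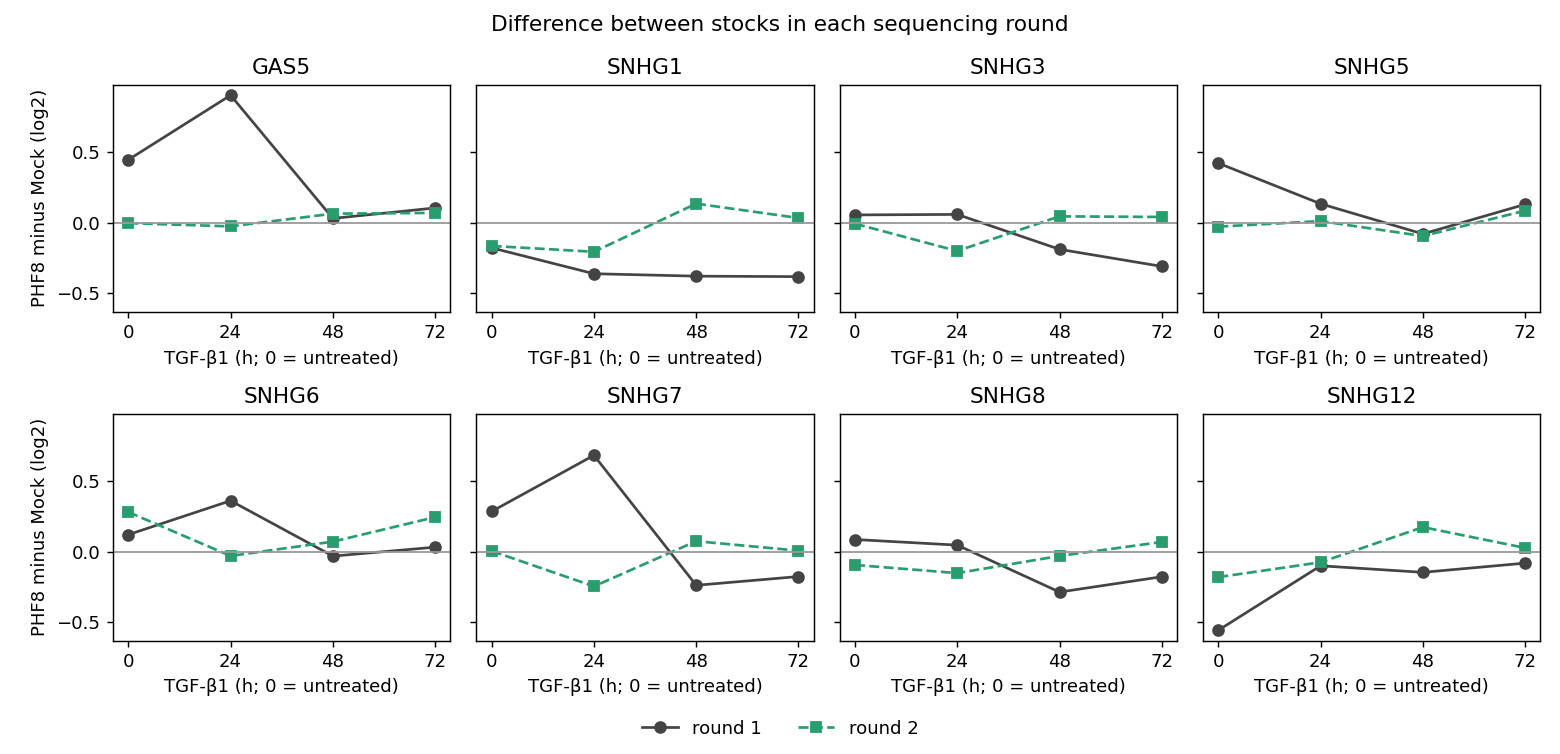
PHF8 minus Mock difference in log2 expression (vertical axis, shared) against hours of TGF-β1 (0 = untreated) for each host gene, with 1 line per sequencing round and each point from 1 pair of libraries. GAS5 reaches 0.91 in round 1 at 24 h and stays near 0 in round 2.

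Between sequencing rounds, 4 of 8 members differed, beside 40.0% of all genes. SNHG5 was 1.01 ± 0.0535 higher in round 2 (limma, adjusted p = 1.05e-06), a 2.02-fold difference. The round 2 minus round 1 difference was -0.50 ± 0.0975 for SNHG7 (adjusted p = 0.00211), -0.34 ± 0.0825 for SNHG1 (adjusted p = 0.00721) and -0.31 ± 0.0768 for SNHG12 (adjusted p = 0.00745). The SNHG5 difference between rounds was larger than any TGF-β1 difference of a member over both stocks. The snoRNA rows of SNHG5 did not rise in round 2, with -0.35 for SNORD50A (adjusted p = 0.0916) and -0.05 for SNORD50B (adjusted p = 0.736 in limma). This was not particular to SNHG5. Every tested snoRNA row of the other hosts was also lower in round 2, from -0.64 for SNORD47 to -0.14 for SNORA44.

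The snoRNAs themselves were described from 26 tested rows of snoRNAs hosted by 6 members; the rows of SNHG7 were at 0, and the snoRNAs of SNHG3 were not analysed here. Annotated exons of some host transcripts cover snoRNAs in SNHG1 (SNORD22, SNORD25, SNORD26, SNORD27, SNORD28 and part of SNORD30), SNHG5 (SNORD50B), SNHG6 (SNORD87), SNHG8 (SNORA24) and SNHG12 (SNORA16A, SNORA44 and SNORA61). Reads of such transcripts or of unspliced host RNA can fall on these rows, and how far the rows count mature snoRNAs was not tested. At 24 h 15 of 26 rows fell, at 48 h 5 and at 72 h 2, with 0 rising, and with the round as a block 18, 13 and 6 fell. Of all genes 16.3%, 15.0% and 13.1% fell at these times, or 25.0%, 23.9% and 22.0% with the block. The count at 48 h without the block was near the share of all genes. The counts at 72 h were not above that share without the block and near it with the block. The median difference was -0.59, -0.42 and -0.27.

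Of the 10 rows in GAS5, 7 fell at 24 h, 2 at 48 h and 1 at 72 h (9, 8 and 4 with the block). SNORD76 stood at 7.50 and 7.42 in untreated Mock cells and 6.66 and 5.96 at 24 h, and at 7.37 and 7.23 in untreated PHF8 cells and 6.94 and 6.40 at 24 h. It fell by 0.89 at 24 h (adjusted p = 0.00619), the largest difference among the GAS5 rows, and differed by -0.39 at 72 h (adjusted p = 0.18). SNORD80, the GAS5 row that passed at all 3 times, fell by 0.58, 0.58 and 0.51 (adjusted p = 0.0241, 0.0249 and 0.0486). SNORD75 was the weakest, at -0.26, -0.04 and 0.20.

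The order over time differed between GAS5 and its snoRNA rows in the fitted values. All 10 rows were less reduced at 72 than at 24 h, with medians of -0.67, -0.49 and -0.37 at the 3 times, while the GAS5 row went from -0.46 to -0.73 and -0.67. For no row did 72 h differ from 24 h at an adjusted p under 0.05, without or with the block, and the difference between host and snoRNA courses was not tested. For SNHG1 the host difference was -0.82, -0.61 and -0.51 and the median of its 8 rows -0.62, -0.38 and -0.20, and here too host and rows were not tested against each other. Of its rows 6 fell at 24 h, 2 at 48 h and 0 at 72 h (7, 4 and 1 with the block). SNORD25, SNORD27 and SNORD30, printed above, fell by 0.89, 0.79 and 0.65 at 24 h (adjusted p = 0.0202, 0.0137 and 0.0384).

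**Figure D4:**
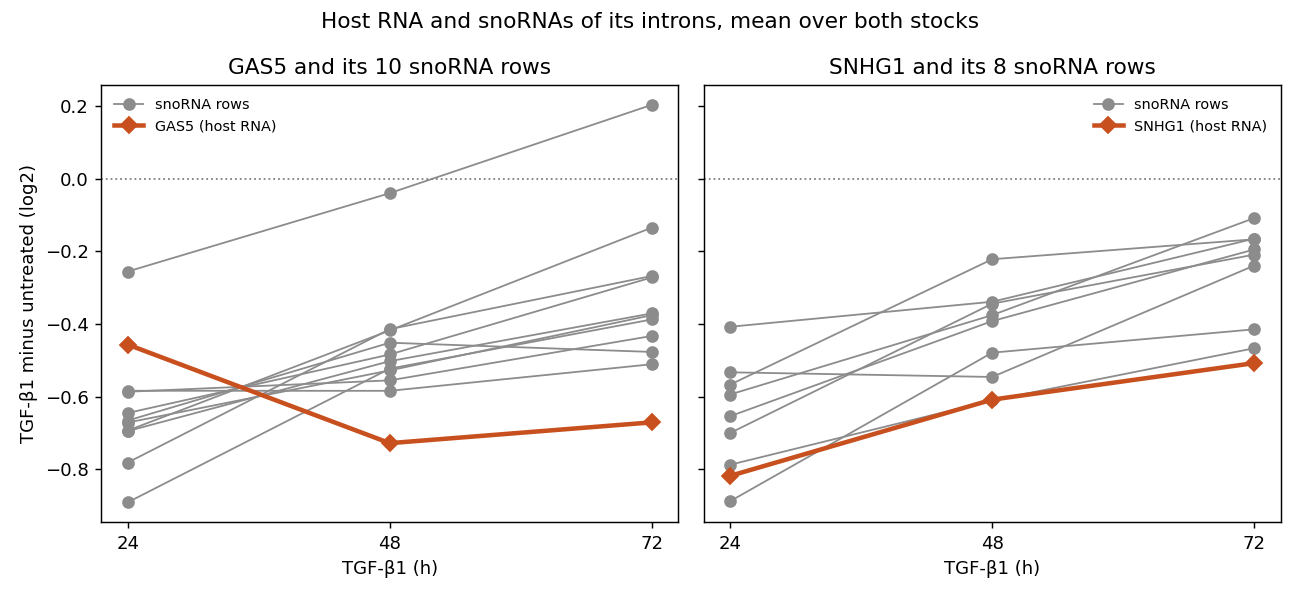
TGF-β1 minus untreated difference in log2 expression (vertical axis) at 24, 48 and 72 h over both stocks for GAS5 and its 10 snoRNA rows (left) and for SNHG1 and its 8 rows (right); orange diamonds are the host, grey circles the snoRNA rows. The GAS5 host lies above most of its rows at 24 h and below all of them at 48 and 72 h.

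In SNHG5, SNORD50B fell by 0.53, 0.56 and 0.79 (adjusted p = 0.0134, 0.0103 and 0.00172), the lowest row at 72 h. SNORD87 in SNHG6 fell by 0.54 at 24 h (adjusted p = 0.0295). The 4 rows of SNHG12 and the 1 of SNHG8 did not pass at any time, with differences from -0.35 to 0.12. PHF8 against Mock called 0 of the 26 rows (1 with the block), with a median of -0.16.

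Other host genes were counted in the same comparison. Of all genes 16.3%, 15.0% and 13.1% fell at 24, 48 and 72 h, or 25.0%, 23.9% and 22.0% with the block. Of 9 further noncoding hosts tested, 6 fell at 24 h, 5 at 48 h and 4 at 72 h, 0 rose, and the others were not called. With the round as a block 8, 6 and 6 of them fell and 0 rose. EPB41L4A-AS1 fell by 1.03 ± 0.161 at 72 h (adjusted p = 0.000836), SNHG4 by 0.95 ± 0.217 (adjusted p = 0.00779), DANCR, known as a differentiation antagonist in epidermal progenitors, by 0.87 ± 0.0968 (adjusted p = 0.000104), and ZNFX1-AS1, now named ZFAS1, by 0.64 ± 0.122 (adjusted p = 0.00266). The median of the 9 was -0.74, -0.58 and -0.45 at 24, 48 and 72 h. Of 40 protein-coding hosts 14, 25 and 22 fell, 0 rose and 26, 15 and 18 were not called, with medians of -0.23, -0.39 and -0.34; among them were the ribosomal protein gene RPL13A (-0.63 ± 0.112 at 72 h, adjusted p = 0.00194), the nucleolar protein NCL (-0.62 ± 0.145, adjusted p = 0.00866) and the mitochondrial chaperone HSPA9 (-0.60 ± 0.14, adjusted p = 0.00874). RCC1, the nucleotide exchange factor of Ran that shares its locus with SNHG3, fell by 0.59 ± 0.148 (adjusted p = 0.0127). With the block 26, 33 and 33 coding hosts fell.

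Messenger RNAs of proteins that build and carry snoRNAs were lower too, in 12 of 16 at 24 h, 10 at 48 h and 9 at 72 h. Of the 16, 0 rose, and the medians were -0.68, -0.51 and -0.47. Protein levels were not measured here. FBL, the methyltransferase of box C/D particles, fell by 0.74 ± 0.138 at 72 h (adjusted p = 0.00242), RUVBL1, an ATPase of their assembly, by 0.60 ± 0.113 (adjusted p = 0.00281), NAF1, an H/ACA assembly factor, by 0.58 ± 0.122 (adjusted p = 0.00512) and NUFIP1, a C/D assembly factor, by 0.52 ± 0.167 (adjusted p = 0.0387). With the block 13 of the 16 fell at each time and 0 rose. All 16 were below 0 at each time. Of all genes 16.3%, 15.0% and 13.1% fell at these times, or 25.0%, 23.9% and 22.0% with the block. DKC1 and NOP56 are themselves host genes and stand in both lists.

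The gene lists linked to how host RNAs are made, translated and degraded gave mixed counts. Of all genes 16.3%, 15.0% and 13.1% fell at 24, 48 and 72 h, or 25.0%, 23.9% and 22.0% with the block. Of 14 TOP messenger RNAs of translation and related factors, 3 fell at 24 h, 8 at 48 h and 6 at 72 h (7, 12 and 11 with the block). Of these 14, 0 rose, and the medians were -0.16, -0.32 and -0.29. The count at 24 h without the block was near the share of all genes. EEF1B2, EEF2 and TPT1 of this list were also counted among the coding hosts. NPM1 fell by 0.55 ± 0.0877 at 72 h (adjusted p = 0.000985), the initiation factors EIF3E by 0.55 ± 0.0704 (adjusted p = 0.000255) and EIF4B by 0.52 ± 0.106 (adjusted p = 0.00403), and the elongation factor EEF1A1 by 0.39 ± 0.12 (adjusted p = 0.0317). Of 15 NMD factors, 1 rose at each time, SMG6, the endonuclease of the pathway, with 0.46 ± 0.0947 at 72 h (adjusted p = 0.00429), and 1 fell at 24 h alone among the 3 times, CASC3 (-0.28, adjusted p = 0.0115), named after its value was seen. With the block 4, 2 and 2 NMD factors fell and 1, 2 and 1 rose. Their medians were -0.16, -0.08 and -0.06. Of all genes 17.0%, 16.2% and 14.3% rose at the 3 times, or 24.5%, 23.8% and 21.7% with the block. Of 8 known NMD targets 3 rose at every time: at 72 h the stress genes GADD45B by 1.57 ± 0.329 (adjusted p = 0.00476) and GADD45A by 1.14 ± 0.192 (adjusted p = 0.00132), and the autophagy gene GABARAPL1 by 0.79 ± 0.15 (adjusted p = 0.00265). UPP1, named after its value was seen, fell at 48 h (-0.38, adjusted p = 0.0386), and ATF4, ATF3, TBL2 and RC3H2 were not called. With the block 5, 5 and 4 of the 8 rose and 1 fell at each time. Medians of these NMD targets were 0.21, 0.24 and 0.24.

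For the receptor that GAS5 can bind, NR3C1 and 10 of its known targets gave no single direction. At 24, 48 and 72 h 2, 5 and 4 of the 11 fell and 2, 1 and 1 rose (3, 6 and 6 against 3, 2 and 2 with the block). Of all genes 16.3%, 15.0% and 13.1% fell and 17.0%, 16.2% and 14.3% rose at these times. With the block 25.0%, 23.9% and 22.0% fell and 24.5%, 23.8% and 21.7% rose. At 24 h the counts of the list were near these shares, without and with the block. The medians of the 11 were -0.17, -0.49 and -0.54. CEBPD fell by 2.07 ± 0.173 at 72 h (adjusted p = 1.74e-05), BIRC3 fell by 1.83 ± 0.156 (adjusted p = 1.95e-05), TSC22D3, which encodes GILZ, fell by 1.07 ± 0.282 (adjusted p = 0.0158) and ERRFI1 fell by 0.93 ± 0.244 (adjusted p = 0.0153). The kinase gene SGK1 was the 1 that rose at 72 h (0.87 ± 0.179, adjusted p = 0.00443), and NR3C1 rose at 24 h (0.46, adjusted p = 0.044); both were named after their values were seen. BIRC3 was 1.14 ± 0.11 higher in the PHF8 stock (adjusted p = 0.00132). The members' neighbours in the genome did not share a direction: of 6 tested, RCC1 and SYNCRIP, next to SNHG5, fell at 24 and 48 h, TRNAU1AP, opposite SNHG12, rose at 24 h by 0.29 (adjusted p = 0.0261), and at 72 h RCC1 alone was called (3 of 6 fell at each time with the block, and 2, 2 and 0 rose).

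**Figure D5:**
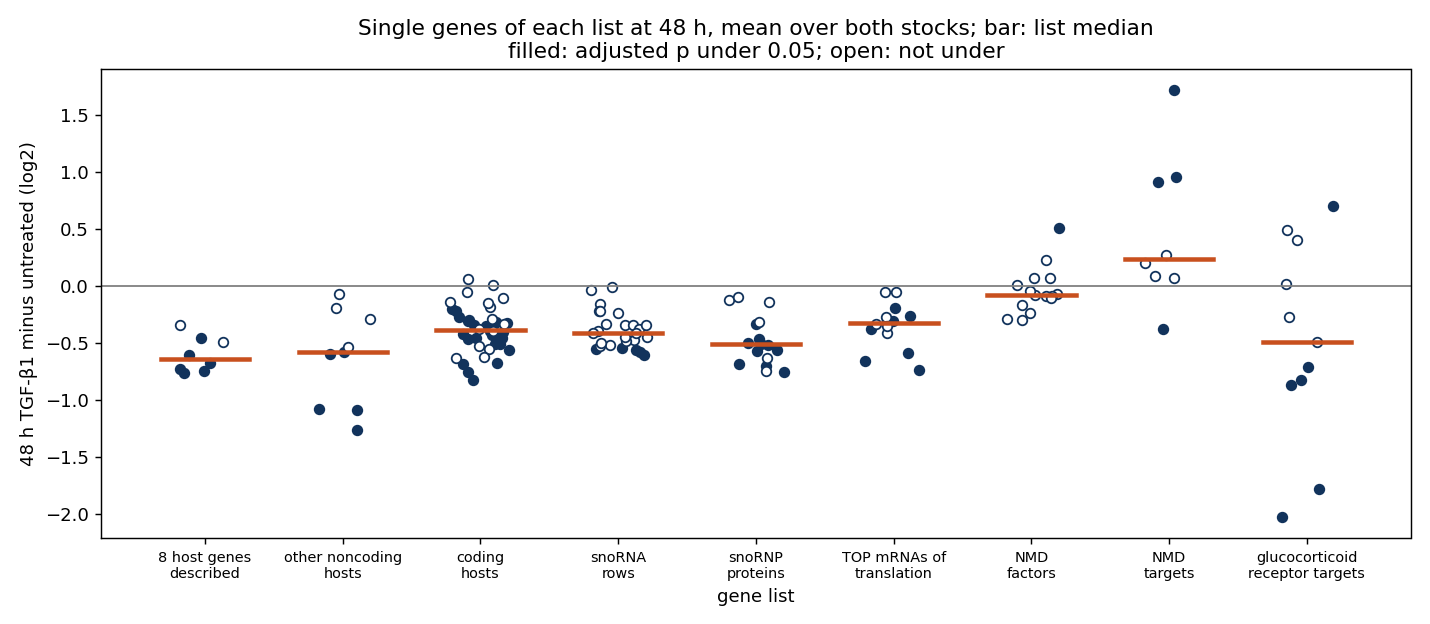
Log2 difference of 48 h TGF-β1 minus untreated over both stocks (vertical axis) for single genes of each list (horizontal axis); filled points have adjusted p under 0.05 in limma and orange bars are list medians. The bars of the host, snoRNA, snoRNP and TOP lists are below 0, from -0.64 for the 8 hosts to -0.32 for the TOP list. Those of the glucocorticoid receptor list (-0.49) and the NMD factors (-0.08) are below 0 too, and that of the NMD targets is above 0.

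Across the 16 libraries Pearson correlations between pairs of members ran from -0.45 to 0.92 with a median of 0.69 over 28 pairs, and from 0.08 to 0.93 with a median of 0.72 once each round was centred. The libraries share treatment, round and normalisation, so these values are given as a description. The genes most like GAS5 were PPA2, a mitochondrial pyrophosphatase (r = 0.965), ASS1, the argininosuccinate synthase (0.962), CPVL (0.962), the ribosomal protein gene RPL23A (0.958) and CCNG1 (0.957). Most like the mean of the 8 were PMPCA (0.98), MRPS27 (0.975), EIF3D (0.971), LRPPRC (0.969) and COQ9 (0.965), of which MRPS27, LRPPRC, PMPCA and COQ9 encode mitochondrial proteins and EIF3D a subunit of translation initiation factor eIF3.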

How the data were processed

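RNA was measured in 16 libraries of 8 groups. Per the labels' protocols, rRNA-depleted stranded libraries were read as 50-base pairs; per the submitters' processing notes, TopHat2 2.0.13, featureCounts of Subread 1.4.6, DESeq2 and hg19 were used. The deposited values are log2 expression on the scale of normalised counts; the transformation is not given in the sources used here, and any shrinkage of low values would compress their fold differences. A second sheet, with 4 value columns that match no sample, was not used. Of 23368 entries, 28 had symbols turned into dates and 4064 were at 0 everywhere; 13570 with 2 raised to the value of at least 10 in at least 2 libraries were tested, with no pseudocount. The test was limma 3.58.1 in R 4.3.3 with a mean-variance trend, 1 mean per group over all 16 libraries, two-sided p adjusted by Benjamini-Hochberg over all genes tested, and a threshold of 0.05. It was checked on simulated data. That check required detection only of changes of 2 on the log2 scale, larger than any member difference given here. Standard errors are the model's.

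The labels make the replicate number the sequencing round, so it pairs the samples. Deviations from the group means correlated between libraries of 1 round (0.207 to 0.749, median 0.461, over 28 pairs of groups). Fits with the round as a block are given where they changed the number of members called. For the lists their counts are given for TGF-β1 over both stocks. Alternatives were other filters, no trend, a pseudocount of 10, median centring, quantile normalization, each library left out and values within rounds. Apart from the block itself, the alternative fits did not include the round. The members, lists and rule for named genes were chosen with earlier results of these data known: all 8 members, the 5 genes most correlated with GAS5 and with the members' mean, and up to 4 called genes with the largest difference per list, at 72 h over both stocks or between stocks over the 4 conditions. Sequences and positions come from GENCODE 29 (GRCh38) and RefSeq (GRCh38.p14). Read counts were not analysed here, so depth is unknown.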

Additional observations from a re-analysis of the deposited data

How the results depend on the processing

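Fitted on the same values, the round as a block raised the number of members called after TGF-β1 over both stocks from 4 to 8 at 72 h, in Mock cells from 0, 2 and 1 to 6, 6 and 5 at 24, 48 and 72 h, and in PHF8 cells from 2, 3 and 2 to 5, 7 and 6. In Mock cells the filter at 50 gave 1 member at 24 h and 2 at 72 h, quantile normalization also 1 and 2, and no trend 1 at 48 h. Of all genes, 2349 were called in either direction in Mock cells at 24 h. With the filter at 50 there were 2313 and with quantile normalization 2418. At 72 h these counts were 1948, 1913 and 2006. At 48 h 2348 genes were called, and 2189 with no trend. In PHF8 cells at 24 h no filter, no trend and median centring gave 0, and quantile normalization gave 1. Of all genes 1590 were called there, and 1341, 1401, 1589 and 1599 with these settings in turn. Without any 1 library the counts ran from 3 to 6, 4 to 7 and 3 to 5 over both stocks, from 0 to 4, 0 to 4 and 0 to 2 in Mock cells and from 0 to 3 at each time in PHF8 cells; between stocks they stayed at 0. Where this left a group with 1 library, it was assumed to vary like the others. After TGF-β1 some of these fits also called fewer of all genes tested, so lost calls were not particular to the members. Uncalled differences changed sign without 1 library: PHF8 minus Mock ran from -0.13 to 0.0046 for SNHG3, -0.0884 to 0.24 for SNHG5 and -0.0687 to 0.17 for SNHG7. SNHG5 after TGF-β1 ran from -0.39 to 0.26 at 24 h and -0.64 to 0.0058 at 72 h over both stocks, from -0.66 to 0.65, -0.85 to 0.45 and -0.92 to 0.38 in Mock cells and from -0.58 to 0.32, -1.04 to 0.0657 and -0.81 to 0.0782 in PHF8 cells; its rounds differ by 1.01. SNHG7 at 48 h over both stocks missed the threshold without the filter (adjusted p = 0.0553) and without the trend (adjusted p = 0.0528). No difference called without the block changed sign in any alternative run, within rounds included. For single members between stocks at 1 condition, the block and the values within rounds were the alternatives run. Within rounds 1 and 2 the SNHG5 differences over both stocks were -0.0068 and -0.13 at 24 h. At 72 h they were -0.24 and -0.40. In Mock cells at 24 h SNHG5 was 0.14 above untreated in round 1 and differed by -0.15 in round 2. The cause of the changes between alternatives was not tested. With no read counts, the depth behind each value is unknown.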
